A study of Mus musculus with 45 samples.

Results

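Organoids of Lgr5 knockout (KO) small intestine grown with Rspo2 at 5 ng/ml (Rspo2-5) were compared with organoids of the same cultures grown with Rspo1 at the same mass concentration (Rspo1-5). The members were all genes of 4 RNA-seq libraries out of 45 in the whole series, 1 library per ligand from each of cultures KO7 and KO2, and the comparison was paired by culture. Each culture came from 1 E17.5 embryo homozygous for Lgr5-DTReGFP, a knock-in that disrupts Lgr5, and was sampled at passage 4 in medium that also held EGF and noggin. The cultures were grown with Rspo1, Rspo2 or Rspo3 at 5 or 100 ng/ml, which gave 12 KO libraries, and 3 wild-type (WT) cultures from E17.5 embryos under the same conditions gave 18 more. The R-spondins were mouse proteins made in CHO cells. A dose is a mass of protein per volume, and the study's methods state that pilot tests were used to set comparable bioactivity, which was not checked here. The paper also reports that Rspo2 allowed full organoid survival at a lower tested concentration than Rspo1 did. It describes Rspo2 as apparently the most potent of the ligands for survival, growth and differentiation. Equal mass concentrations were therefore not taken as equal activity. The part of potency or survival in the differences below was not tested. With 2 KO cultures, n = 2 for every KO value. The p-values within KO rest on how the difference between the 2 cultures varied over the 6 KO conditions. The test shares information on this spread across genes. P-values for KO against WT come from a fit of all 30 organoid libraries.

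R-spondins are secreted proteins that bind receptors of the Lgr4, Lgr5 and Lgr6 family and the membrane ligases Rnf43 and Znrf3. The ligases remove Frizzled, the Wnt receptor, from the cell surface, and their clearance by R-spondin raises the response of a cell to Wnt. In the small intestine this pathway maintains crypt base stem cells and Paneth cells, and its target genes include both ligases, Axin2 and Lgr5 itself.

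The 4 libraries held an estimated 23.5 M to 26.3 M reads on genes (M, 1000000 reads), at which 1 read was worth 0.0380 to 0.0425 counts per M reads on genes (CPM). Between 15373 and 16846 genes reached 1 CPM. Epcam, the epithelial adhesion molecule, lay between 622 and 829 CPM in all 4. Of 20 mesenchymal markers, 15 stayed under 1 CPM in every library and 3 of them were listed at 0, and the summed level of the list was 15.0 to 17.1 CPM. Of 23 immune, endothelial, neural and erythroid markers, 17 stayed under 1 CPM and 5 of them were listed at 0, with summed levels of 41.2 to 45.9 CPM. Transcripts of Rspo1 and Rspo2 were listed at 0 in all 4 libraries. The Lgr5 count did not check the genotype, because reads from the disrupted locus were counted on the gene: it lay between 0.20 and 104 CPM in the 12 KO libraries and between 0.35 and 458 CPM in the 18 WT libraries.

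The ligand changed a large share of the transcriptome of KO organoids. Of 18211 genes tested with limma, 3600 (19.8%) were higher with Rspo2-5 and 1373 (7.54%) were lower at a false discovery rate of 0.05, and 933 and 274 of these changed at least 2-fold. Genes called lower supplied 20.4% of the CPM of KO7 and 19% of that of KO2 with Rspo1-5, and 11.6% and 12% with Rspo2-5. Genes called higher rose from 8.94% to 15.9% of the CPM in KO7 and from 11.0% to 17.2% in KO2. Every one of the 4973 called genes moved in the same direction in both cultures, and 71.4% of them moved further in KO7. Of all 18211 genes tested, called or not, 11195 had the larger absolute difference in KO7. A call rests on the mean over both cultures and favours genes that agree between them. The shared direction of called genes and their shifts in share therefore follow in part from the call. Of all genes tested, called or not, 50.5% were higher and 23.4% lower with Rspo2-5 in both cultures. Across all genes tested, the differences of the cultures correlated with Pearson r = 0.702 and Spearman rho = 0.655; genes share libraries and are not independent.

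The division between rises and falls depended on the scaling of the libraries. The median log2 fold change of all genes was 0.15, and all fold changes below are given on the deposited CPM, as log2(CPM + 1), beside that median. Median-ratio scaling moved the median by 0.14 to 0.01, after which 2311 genes were higher and 2199 lower, 51.2% higher against 72.4% on the CPM. The 2311 higher genes were all among the 3600, and the 1373 lower genes all remained lower. For list counts with median-ratio scaling below, these 2311 and 2199 of 18211 genes are the background. Without the culture as a block in the fit, 1129 genes were called. The count also rested on single libraries: 14 genes were called without KO2 Rspo2-5, 213 without KO7 Rspo1-5, 2124 without KO7 Rspo2-5 and 5822 without KO2 Rspo1-5, where the remaining library of the ligand was assumed to vary like the other conditions.

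**Figure D1:**
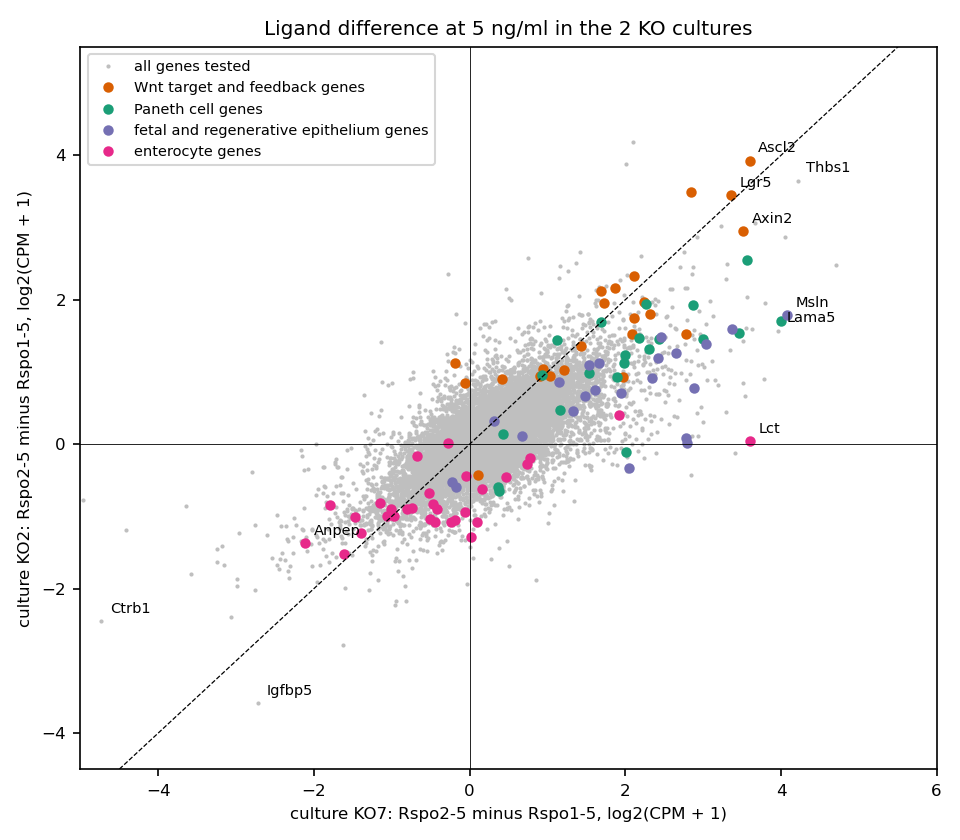
Difference between Rspo2-5 and Rspo1-5 on the log2(CPM + 1) scale in culture KO7 (horizontal) and KO2 (vertical), with 1 point per gene of the 18211 tested and 4 gene lists in colour. Wnt targets lie near the dashed line of equal difference (medians 1.87 in KO7 and 1.53 in KO2), genes of fetal epithelium lie below it (2.00 and 0.77), and most enterocyte genes lie under 0 in both cultures.

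The receptors and ligases of the R-spondins split. Lgr5 was 1.10 CPM with Rspo1-5 and 20.6 CPM with Rspo2-5 in KO7, and 7.40 and 90.5 CPM in KO2. This rise had a log2 fold change of 3.40 ± 0.56 (adjusted p = 0.0081, limma). The ratio of the CPM was 18.7-fold in KO7 and 12.2-fold in KO2. Lgr4, the paralogue that is intact in these organoids, was 287 and 289 CPM with Rspo1-5 in KO7 and KO2, and 297 and 318 CPM with Rspo2-5. It was not called by limma (log2 fold change 0.09 ± 0.12, adjusted p = 0.58). Rnf43 was 32.4 CPM in KO7 and 53.4 CPM in KO2 with Rspo1-5, and 166 and 189 CPM with Rspo2-5. Both cultures rose, with a log2 fold change of 2.06 ± 0.28 and an adjusted p of 0.0061 from limma. Znrf3 was 18.9 CPM with Rspo1-5 and 44.9 CPM with Rspo2-5 in KO7, and 34.0 and 70.4 CPM in KO2. For Znrf3, limma gave a log2 fold change of 1.12 ± 0.21 and an adjusted p of 0.0096. For all 3 called genes, both Rspo2-5 libraries lay above both Rspo1-5 libraries. Lgr6 was listed at 0 in the 4 libraries and did not pass the filter on low values.

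Targets and feedback genes of the Wnt pathway rose as a group: 19 of 23 tested members were called higher (19.8% of all genes were) and 0 were called lower, with a median log2 fold change of 1.84 beside 0.15 for all genes. Of the 28 listed genes, Notum, Lef1, Wif1, Dkk2 and Dkk3 did not pass the filter. Axin2, a scaffold of the complex that degrades beta-catenin, was 11.2 and 55.3 CPM with Rspo1-5 in KO7 and KO2, and 138 and 433 CPM with Rspo2-5. Its log2 fold change was 3.23 ± 0.48 (SE, adjusted p = 0.0065, limma). The ratio of the CPM was 12.4-fold in KO7 and 7.84-fold in KO2. Ascl2, a transcription factor of crypt base stem cells, was 0.40 CPM in KO7 and 1.45 CPM in KO2 with Rspo1-5, and 16.0 and 36.2 CPM with Rspo2-5. The rise had a log2 fold change of 3.76 ± 0.43 (adjusted p = 0.0046, limma). Tnfrsf19, also called Troy, a membrane receptor of these cells, was 0.10 CPM with Rspo1-5 and 6.90 CPM with Rspo2-5 in KO7, and 0.00 and 10.3 CPM in KO2. KO7 and KO2 both rose, with a log2 fold change of 3.17 ± 0.42 and an adjusted p of 0.0055 from limma. Axin2 and Ascl2 were higher in KO2 than in KO7 with either ligand, so the cultures differed in level but moved the same way.

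Further members covered transcription factors, cyclins and membrane proteins. The transcription factors Sp5 (log2 fold change 2.22), Etv4 (1.94), Tcf7 (1.91), Sox9 (1.84) and Myc (1.39) were called higher. Sox9 was 43.2 and 55.8 CPM with Rspo1-5 in KO7 and KO2, and 145 and 220.0 CPM with Rspo2-5. The cyclins Ccnd1 (2.15) and Ccnd2 (1.45), the adhesion receptor Cd44 (2.11) and the guidance receptors Ephb3 (2.01) and Ephb2 (0.99) rose too. Slc12a2, a chloride cotransporter that is abundant in crypts, was 223 CPM in KO7 and 500.1 CPM in KO2 with Rspo1-5, and 946 and 1444 CPM with Rspo2-5. Smaller rises were called for Zfp703 (0.99) and Apcdd1, an inhibitor of Wnt signalling (0.92). Nkd1, Nkd2, Sox4 and Prox1 were not called. Nkd1, a feedback inhibitor, was 0.05 CPM with Rspo1-5 and 0.40 CPM with Rspo2-5 in KO7, and 0.10 and 1.05 CPM in KO2, with Rspo1-5 values close to the rounding step of 0.05 CPM.

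**Figure D2:**
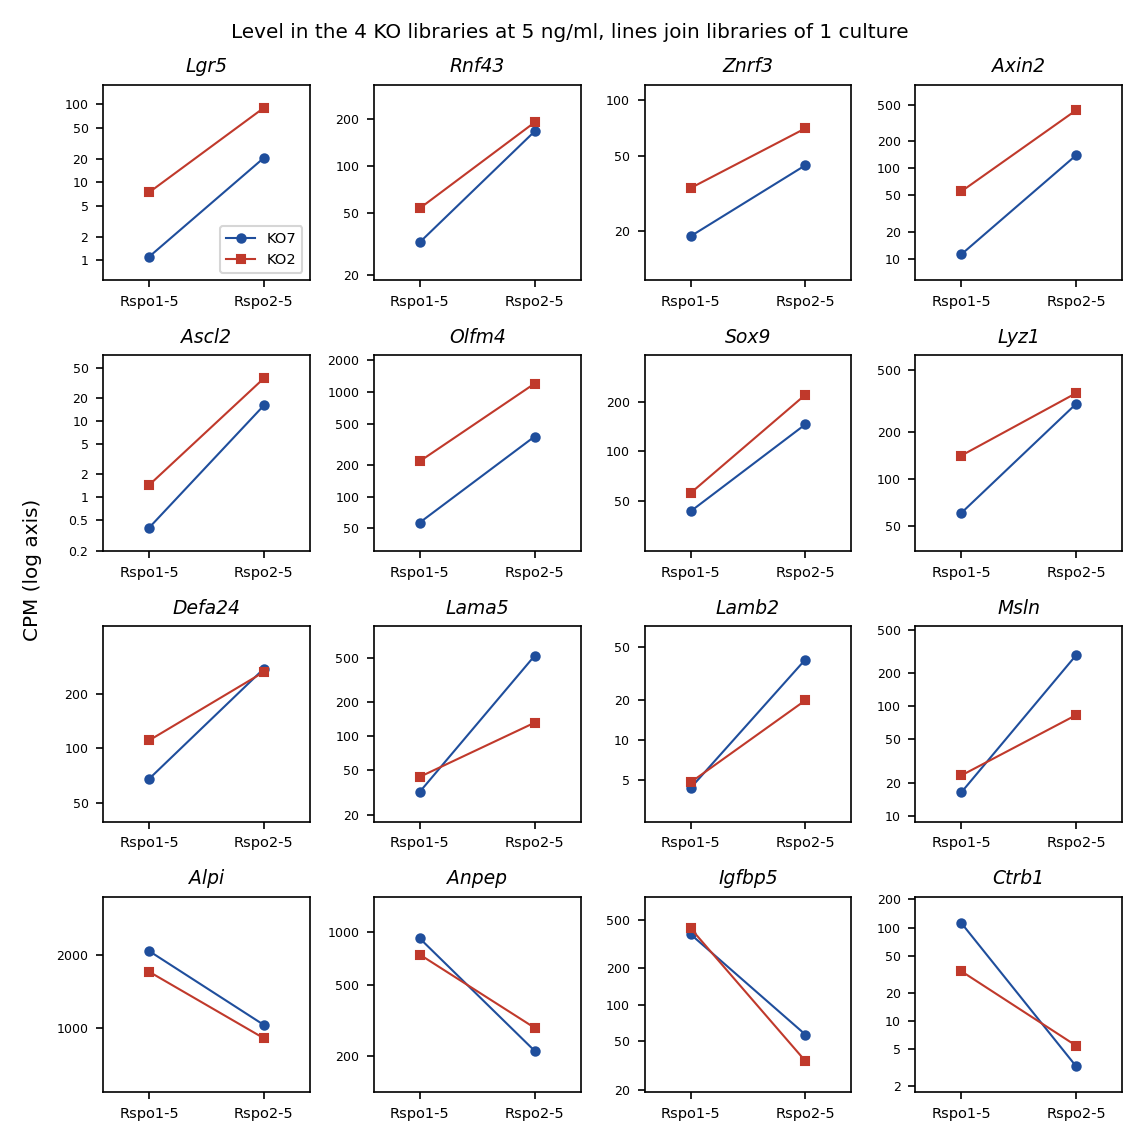
Level of 16 genes in the 4 KO libraries at 5 ng/ml (CPM, log axis, each panel with its own range), with lines joining the libraries of culture KO7 (circles) and KO2 (squares). The lines of each gene run in the same direction in both cultures, and those of Lama5, Lamb2 and Msln rise less steeply in KO2.

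Wnt ligands and their receptors moved in both directions. Of 19 tested members, 8 were higher and 2 were lower, beside 19.8% and 7.54% of all genes. With median-ratio scaling these counts were 6 and 3, without Fzd6 and Lrp5 among the higher and with Fzd4 among the lower. Wnt3, the ligand that Paneth cells make, was 1.90 and 2.45 CPM with Rspo1-5 in KO7 and KO2, and 8.35 and 10.2 CPM with Rspo2-5. For Wnt3, limma gave a log2 fold change of 1.69 ± 0.17 and an adjusted p of 0.0028. Wls, the carrier that Wnt ligands need for secretion, rose (log2 fold change 1.15), as did the Frizzled receptors Fzd7 (1.18) and Fzd2 (1.23). Fzd5, another Frizzled receptor, fell and was 785 CPM in KO7 and 712 CPM in KO2 with Rspo1-5, and 346 and 381 CPM with Rspo2-5. Fzd5 had a log2 fold change of -1.04 ± 0.22 (SE, adjusted p = 0.013, limma). The other Frizzleds called higher were Fzd9, Fzd1 and Fzd6, beside the coreceptor Lrp5, and the other fall was that of Lrp6 (log2 fold change -0.32); these 5 were named after their values were seen.

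Stem cell markers followed the Wnt targets, with which the list shares Lgr5, Ascl2, Tnfrsf19 and Slc12a2. Of 19 tested markers, 14 were higher (13 with median-ratio scaling, without Bmi1) and 0 were lower, beside 19.8% and 7.54% of all genes. The median log2 fold change of these markers was 1.66. In bulk libraries more cells of a type and more RNA per cell cannot be told apart, here and for the other cell types below. Olfm4, a secreted glycoprotein of crypt base cells, was 56.9 CPM with Rspo1-5 and 376 CPM with Rspo2-5 in KO7, and 218 and 1201 CPM in KO2. This rise had a log2 fold change of 2.58 ± 0.44 (adjusted p = 0.0085, limma). Igfbp4, a binding protein of insulin-like growth factors, was 2.10 and 1.50 CPM with Rspo1-5 in KO7 and KO2, and 38.4 and 19.9 CPM with Rspo2-5. Each culture rose, with a log2 fold change of 3.36 ± 0.54 and an adjusted p of 0.0081 from limma. KO2 was the higher culture for Olfm4 and the lower one for Igfbp4. Other rises were those of Soat1, the enzyme that esterifies cholesterol (log2 fold change 2.47), the RNA-binding protein Msi1 (2.37) and Cdca7 (2.02). Clca3b (1.66), Rgmb (1.51), Prom1 (1.26), Lrig1 (0.70) and Bmi1 (0.55) made up the rest. Smoc2, Aqp4, Clca4a, Hopx and Tert were not called. Smoc2 was 147 CPM in KO7 and 177 CPM in KO2 with Rspo1-5, and 144 and 310.4 CPM with Rspo2-5, with the Rspo2-5 library of KO2 above the other 3.

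Genes of the Paneth cell, the crypt cell that secretes antimicrobial peptides and Wnt ligands, were higher in 16 of 21 tested members and lower in 0, also with median-ratio scaling. Of all genes 19.8% were higher, and the median log2 fold change of the list was 1.62. Lyz1, lysozyme, was 60.4 CPM with Rspo1-5 and 301 CPM with Rspo2-5 in KO7, and 141 and 353 CPM in KO2. For Lyz1, limma gave a log2 fold change of 1.81 ± 0.23 and an adjusted p of 0.0055. Itln1, a lectin, was 34.5 and 127 CPM with Rspo1-5 in KO7 and KO2, and 389 and 372 CPM with Rspo2-5. The log2 fold change was 2.5 ± 0.47 (SE, adjusted p = 0.0099, limma). The ribonuclease Ang4 (log2 fold change 2.85), the serine protease Habp2 (3.06) and Mmp7, the protease that activates mouse alpha-defensins (2.23), rose as well. Nupr1 was the remaining gene called higher outside the defensins and Wnt3 (1.41). Pla2g2a, Mptx1, Mptx2, Reg4 and Spink4 were not called. The summed level of the list rose from 779 to 2103 CPM in KO7 and from 979 to 1692 CPM in KO2.

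The alpha-defensin genes moved together. All 13 that passed the filter, of 22 symbols beginning with Defa, were called higher, with a median log2 fold change of 1.62 and a range of 0.82 to 3.12. This family was taken as a group after its values were seen. Many members, Defa24 and Defa30 among them, are also on the Paneth list, so both counts share calls. Defa24 was 68.0 CPM in KO7 and 111 CPM in KO2 with Rspo1-5, and 274 and 262 CPM with Rspo2-5. The rise had a log2 fold change of 1.62 ± 0.19 (adjusted p = 0.0047, limma). Defa35 was 1.90 CPM with Rspo1-5 and 26.1 CPM with Rspo2-5 in KO7, and 2.75 and 29.4 CPM in KO2. Both cultures rose, with a log2 fold change of 3.12 ± 0.21 and an adjusted p of 0.00066 from limma. Defa30 was 10.9 and 23.1 CPM with Rspo1-5 in KO7 and KO2, and 86.3 and 90.5 CPM with Rspo2-5. For Defa30, limma gave a log2 fold change of 2.40 ± 0.24 and an adjusted p of 0.0028. Summed over the 22 symbols, the level went from 92.1 to 462 CPM in KO7 and from 181 to 518 CPM in KO2, so the cultures were further apart with Rspo1-5 than with Rspo2-5. These genes are near-identical copies on chromosome 8, and reads they share may have been split or dropped in the counting, so the level of a single member is uncertain. For the same reason the 13 calls are not independent.

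The promoters of these defensins are shown because they hold the core letters of the motif bound by TCF and LEF, the nuclear factors of the Wnt pathway. The letters CTTTGAT and, on the other strand, ATCAAAG were searched in the 250 bases before the gene start in the RefSeq promoters of GRCm38.p6. Of the 13 tested alpha-defensin genes, 5 matched a RefSeq promoter by symbol. All 5 held the motif and 4 held it at 2 places. Of the 11028 tested genes with a promoter, 309 (2.8%) held at least 1. Counted per promoter, the share was 3.21% of all 32851 promoters, tested genes or not. The copies descend from each other, so the 5 are not independent. Of 23 tested Wnt targets, 13 matched and 2 held the motif, Sp5 and Tnfrsf19. Among genes called higher with a promoter, the share was 2.73%, and among genes called lower 2.74%. Stretches of 100 bases follow, on the strand of the gene, with the motif in capitals.
Defa35, chr8:21064884-21064983 (+ strand): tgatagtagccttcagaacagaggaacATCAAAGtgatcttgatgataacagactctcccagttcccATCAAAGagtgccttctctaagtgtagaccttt
Defa22, chr8:21162138-21162237 (+ strand): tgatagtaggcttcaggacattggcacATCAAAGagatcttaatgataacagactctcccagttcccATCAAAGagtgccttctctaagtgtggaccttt
Defa23, chr8:21054899-21054998 (+ strand): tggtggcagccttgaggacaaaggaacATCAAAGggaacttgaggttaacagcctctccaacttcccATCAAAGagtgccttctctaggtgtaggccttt
Defa30, chr8:21134461-21134560 (+ strand): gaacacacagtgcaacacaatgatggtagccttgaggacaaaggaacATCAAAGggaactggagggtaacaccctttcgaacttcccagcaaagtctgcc
Sp5, chr2:70474772-70474871 (+ strand): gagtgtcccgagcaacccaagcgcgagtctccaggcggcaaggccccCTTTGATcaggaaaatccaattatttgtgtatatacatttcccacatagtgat

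The stretch of Defa31 is letter for letter that of Defa23. In Defa35, Defa22 and Defa23 the pair of motifs has the same spacing, and Defa30 holds 1 motif. The log2 fold changes of Defa35, Defa22, Defa23 and Defa30 were 3.12, 0.82, 1.26 and 2.40, so members with 2 motifs lay at both ends of the family's range. The promoters of Axin2, Ascl2 and Olfm4 held none of these letters in the same window.

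None of 30 tested enterocyte genes was called higher and 10 (7.54% of all genes were lower) were called lower, or 13 with median-ratio scaling, which added the apolipoproteins Apoa4, Apoc2 and Apoc3, with a median log2 fold change of -0.65. Anpep, the brush border aminopeptidase N, was 924 CPM in KO7 and 748 CPM in KO2 with Rspo1-5, and 213 and 288 CPM with Rspo2-5. Its log2 fold change was -1.74 ± 0.21 (SE, adjusted p = 0.0053, limma). Alpi, the intestinal alkaline phosphatase, was 2071 CPM with Rspo1-5 and 1031 CPM with Rspo2-5 in KO7, and 1704 and 909 CPM in KO2. This fall had a log2 fold change of -0.96 ± 0.23 (adjusted p = 0.018, limma). The trehalase Treh (log2 fold change -1.31), the retinol carrier Rbp2 (-1.24) and the fatty acid carrier Fabp2 (-0.99) were lower too, and so were Enpep, Dgat1, Mttp, Slc2a5 and Cdhr5. Lct and Sis differed between the cultures. Lct, lactase, was 5.70 and 11.8 CPM with Rspo1-5 in KO7 and KO2, and 80.7 and 12.2 CPM with Rspo2-5. Its log2 fold change of 1.82 ± 0.80 was not called (adjusted p = 0.12, limma). Sis, sucrase-isomaltase, was 1895 CPM in KO7 and 1279 CPM in KO2 with Rspo1-5, and 3169.6 and 1061 CPM with Rspo2-5. It was not called by limma (log2 fold change 0.24 ± 0.32, adjusted p = 0.61). The summed level of the 30 genes went from 17515 to 15463 CPM in KO7 and from 17233 to 9949 CPM in KO2.

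Of 16 tested goblet genes, 5 were higher, beside 19.8% of all genes, namely the transcription factors Atoh1 (log2 fold change 0.88), Spdef (0.74), Creb3l1 (1.05) and Creb3l4 (0.72) and the glycosyltransferase Galnt12 (0.52). Muc2, the main secreted mucin, was 1036 CPM with Rspo1-5 and 1075 CPM with Rspo2-5 in KO7, and 745 and 359 CPM in KO2. Its log2 fold change of -0.50 ± 0.35 was not called (adjusted p = 0.31, limma). Zg16, a lectin of mucus and the only goblet gene called lower, was named after its values were seen (log2 fold change -1.59). Of 22 tested enteroendocrine genes, 4 were higher, beside the same 19.8%: the transcription factors Neurog3 (1.16), Nkx2-2 (0.96) and Insm1 (0.61), and Vwa5b2. The hormone genes Gip (-0.91) and Sct were lower. These 2 of 22 and the 1 goblet fall stand beside 7.54% of all genes lower. Chga, a granule protein, was 37.3 and 63.5 CPM with Rspo1-5 in KO7 and KO2, and 54.4 and 53.1 CPM with Rspo2-5, and was not called (adjusted p = 0.71, limma). Of 7 tested tuft cell genes, Cd24a (1.09), Pou2f3 (1.06) and Trpm5 (0.84) were higher, and Dclk1 stayed between 0.40 and 1.90 CPM. With median-ratio scaling the goblet counts were 3 higher and 2 lower, the enteroendocrine counts 3 and 2 and the tuft count 2.

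Genes of fetal and regenerating epithelium rose, more so in KO7. Of 22 tested genes, 14 were higher and 0 lower, beside 19.8% and 7.54% of all genes, with a median log2 fold change of 1.36. With median-ratio scaling 14 were higher and 2, Krt19 and Birc3, were lower. The absolute difference was larger in KO7 for 19 of the 22, beside 11195 of all 18211 genes tested. Msln, mesothelin, was 16.4 CPM in KO7 and 23.4 CPM in KO2 with Rspo1-5, and 292 and 83.0 CPM with Rspo2-5. KO7 and KO2 both rose, with a log2 fold change of 2.93 ± 0.47 and an adjusted p of 0.0077 from limma. Anxa3, an annexin, was 5.70 CPM with Rspo1-5 and 68.5 CPM with Rspo2-5 in KO7, and 4.65 and 16.1 CPM in KO2. For Anxa3, limma gave a log2 fold change of 2.48 ± 0.35 and an adjusted p of 0.0061. Ly6a, the surface protein Sca-1, was 0.15 and 0.10 CPM with Rspo1-5 in KO7 and KO2, and 6.25 and 1.65 CPM with Rspo2-5. Ly6a had a log2 fold change of 1.96 ± 0.36 (SE, adjusted p = 0.0094, limma). Cyr61, a matrix protein and target of YAP, was 2.05 CPM in KO7 and 2.80 CPM in KO2 with Rspo1-5, and 15.8 and 9.60 CPM with Rspo2-5, and the keratin Krt7 was 124 CPM with Rspo1-5 and 380.0 CPM with Rspo2-5 in KO7, and 93.3 and 158 CPM in KO2. In each of these 5 genes, both Rspo2-5 libraries were above both Rspo1-5 libraries, and KO7 was the highest of the 4.

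The matrix genes showed the same order of cultures. Of 24 tested genes of basement membrane and matrix, 12 were higher (11 with median-ratio scaling, without Lamc1) and 0 were lower, beside 19.8% and 7.54% of all genes. The median log2 fold change of the list was 0.76, and it was 1.01 in KO7 and 0.41 in KO2. Lama5, the laminin alpha5 chain, was 32.3 and 43.9 CPM with Rspo1-5 in KO7 and KO2, and 518 and 132 CPM with Rspo2-5. The rise had a log2 fold change of 2.77 ± 0.47 (adjusted p = 0.0085, limma). The ratio of the CPM was 16.0-fold in KO7 and 3.02-fold in KO2. Lamb2, the laminin beta2 chain, was 4.35 CPM in KO7 and 4.80 CPM in KO2 with Rspo1-5, and 40.4 and 19.9 CPM with Rspo2-5. Each culture rose, with a log2 fold change of 2.40 ± 0.26 and an adjusted p of 0.0044 from limma. Col4a1 and Col4a2, the neighbouring genes of the main collagen IV chains, were near the threshold. Col4a1 was 2.5 CPM with Rspo1-5 and 17.2 CPM with Rspo2-5 in KO7, and 5.45 and 11.6 CPM in KO2, and Col4a2 was 2.80 and 5.85 CPM with Rspo1-5 in KO7 and KO2, and 20.2 and 12.4 CPM with Rspo2-5; limma gave both an adjusted p of 0.041. Npnt (log2 fold change 2.01), Tinagl1 (1.52) and Mfge8 (1.14) also rose. Loxl4, a lysyl oxidase that crosslinks collagen, was 1.90 CPM in KO7 and 3.20 CPM in KO2 with Rspo1-5, and 9.45 and 2.90 CPM with Rspo2-5. It was not called by limma (log2 fold change 0.87 ± 0.64, adjusted p = 0.33). In the family of insulin-like growth factor genes, Igfbp4, the protease Pappa2 (1.85) and the receptor Igf1r (1.19) were higher, 3 of 12 beside 19.8% of all genes. Igfbp5, a secreted binding protein, was 381 CPM with Rspo1-5 and 57.0 CPM with Rspo2-5 in KO7, and 427 and 34.5 CPM in KO2. For Igfbp5, limma gave a log2 fold change of -3.15 ± 0.94 and an adjusted p of 0.037. Its fall ran against Igfbp4 in both cultures.

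Replication genes led the cell cycle list, in which 17 of 33 were higher and 2 lower (10 and 2 with median-ratio scaling). Of all genes, 19.8% were higher and 7.54% lower. Mcm2, a subunit of the replicative helicase, was 34.2 and 70.3 CPM with Rspo1-5 in KO7 and KO2, and 119 and 159.8 CPM with Rspo2-5. The log2 fold change was 1.47 ± 0.27 (SE, adjusted p = 0.0096, limma). Mcm3, Mcm4, Mcm5, Mcm6 and Mcm7 rose with it, by log2 fold changes of 1.12 to 1.36. Mki67, a general marker of cycling cells, was 355 CPM in KO7 and 482 CPM in KO2 with Rspo1-5, and 558 and 655 CPM with Rspo2-5. Its log2 fold change of 0.55 ± 0.19 was not called (adjusted p = 0.063, limma). Cdkn1c and Cdkn2b, inhibitors of cyclin-dependent kinases, were lower (log2 fold changes -1.02 and -0.85, named after their values were seen).

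In the Notch list 8 of 15 genes were higher, beside 19.8% of all genes, led by the ligand Jag2 (log2 fold change 1.69) and the glycosyltransferase Lfng (1.36). For every list in this paragraph the background was 19.8% of all genes higher and 7.54% lower. In the BMP list 6 of 16 were higher, among them the targets Id2 (1.38) and Id3 and the ligands Bmp7 (1.37) and Bmp8b (1.37), while Bmp2 and Bmp3 were lower. Bmp3 was 234 CPM with Rspo1-5 and 28.6 CPM with Rspo2-5 in KO7, and 185 and 49.9 CPM in KO2. This fall had a log2 fold change of -2.43 ± 0.33 (adjusted p = 0.0061, limma). In the Eph and ephrin list 6 of 14 were higher, the receptors Ephb3, Ephb2, Epha4 (1.95) and Epha2 (1.51) and the ligands Efna2 (0.95) and, not with median-ratio scaling, Efna3 (0.91), and 3 ligands were lower, Efnb2, Efna1 (-0.70) and Efnb1 (-0.48). Efnb2 was 413 and 360.4 CPM with Rspo1-5 in KO7 and KO2, and 191 and 137 CPM with Rspo2-5. Both cultures fell, with a log2 fold change of -1.25 ± 0.23 and an adjusted p of 0.0098 from limma. In the EGF receptor list 9 of 22 were higher, with Phlda1 (2.20), the ligand Btc (1.89) and the feedback inhibitors Spry1 (1.12) and Spred1 (0.97). The falls were those of Dusp5 and Erbb3, 2 of 22 beside 7.54% of all genes. Among 15 immediate early genes, Nr4a1 (1.10), Fosl1 (0.96) and Ier2 (0.37) were higher, 3 of 15 beside 19.8% of all genes. Ier2 was not called with median-ratio scaling.

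Of 17 p53 targets, 5 were higher, beside 19.8% of all genes, led by Gdf15 (log2 fold change 1.95) and Phlda3 (1.56). Another 3 were lower, beside 7.54% of all genes, among them Sesn1 (-0.75) and Trp53inp1 (-0.72). In the list of unfolded protein and amino acid responses, 7 of 22 genes were higher, beside 19.8% of all genes. They were those of amino acid supply and one-carbon metabolism, Slc7a11 (1.80), Psat1 (1.05), Shmt2 (1.10), Asns (0.95), Phgdh and Mthfd2, and the lipoprotein receptor Vldlr (1.19). No chaperone of the list was called. Xbp1, a transcription factor of the unfolded protein response, was the 1 lower gene, beside 7.54% of all genes. Of 30 cholesterol and fatty acid synthesis genes, 0 were higher and 6 lower (13 with median-ratio scaling), beside 7.54% of all genes lower. The median log2 fold change of the list was -0.43, with -0.78 in KO7 and -0.18 in KO2. Scd1, the stearoyl-CoA desaturase, was 423 CPM in KO7 and 391 CPM in KO2 with Rspo1-5, and 99.5 and 308 CPM with Rspo2-5. For Scd1, limma gave a log2 fold change of -1.21 ± 0.35 and an adjusted p of 0.034. Of 27 interferon and antigen presentation genes, 4 rose, beside 19.8% of all genes: Ifit2 (1.94), Oas2, Rsad2 and, not with median-ratio scaling, Bst2. The list's median log2 fold change was 1.18 in KO7 and -0.18 in KO2. In both cultures 12 of the 27 were higher, beside 50.5% of all genes. Oas2 was 0.10 CPM with Rspo1-5 and 4.25 CPM with Rspo2-5 in KO7, and 0.10 and 0.40 CPM in KO2. Of 17 antimicrobial and host defence genes, 0 were higher and 4 lower, beside 7.54% of all genes lower. The 4 were the secreted lectins Reg1 (-0.81) and Reg3a (-1.09), the immunoglobulin receptor Pigr (-0.84) and the chemokine Ccl25 (-0.78). The region factors Gata4 (-0.38), Gata6 (-0.39) and Cdx1 (-0.56) were lower, 3 of 12 beside 7.54% of all genes.

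None of 11 mitochondrially encoded genes was called by limma (0 passed an unadjusted p of 0.05), and they moved in opposite directions in the cultures, with medians of -0.30 in KO7 and 0.70 in KO2. Of 5 tested mesenchymal markers, 1, Postn, was higher (log2 fold change 0.71), beside 19.8% of all genes. Postn was not called with median-ratio scaling, where Tagln was lower. Of 7 tested immune, endothelial, neural and erythroid markers 2 were higher, beside the same 19.8%, among them Lyz2 (1.25). Lyz2 is a copy of Lyz1, and reads they share may have been divided between them. Among the 10 epithelial markers 1, Krt18, rose (0.90), beside 19.8% of all genes. The only fall was that of Cdx1 (-0.56), beside 7.54% of all genes lower, and the list median was -0.20. With median-ratio scaling 1 was higher and 3 were lower. None of 5 tested stomach and oesophagus markers was called by limma (2 passed an unadjusted p of 0.05, 1 in each direction).

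**Figure D3:**
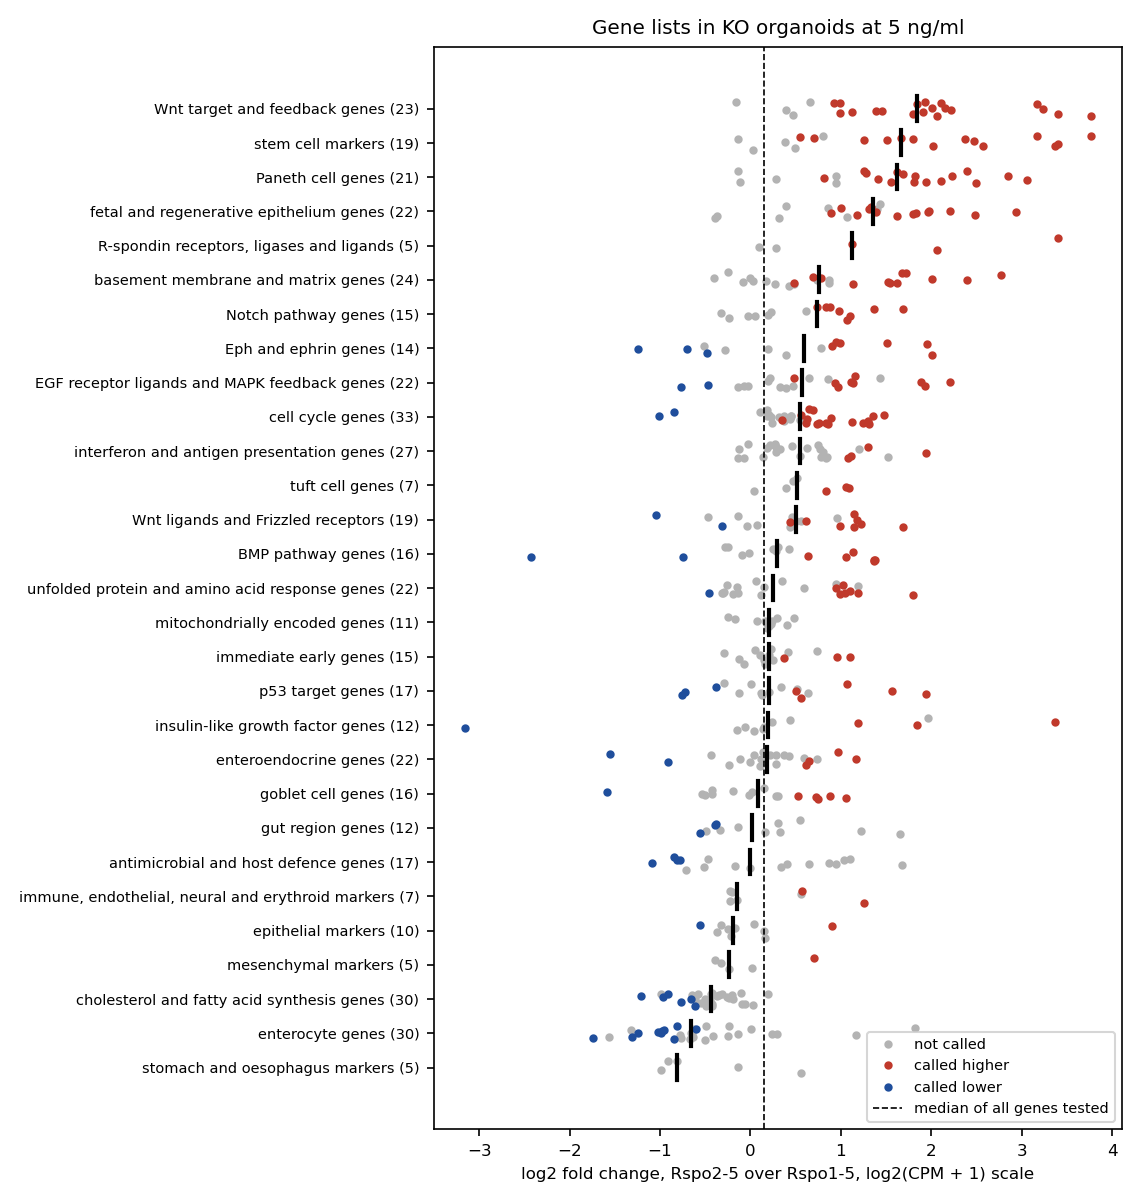
Log2 fold change of Rspo2-5 over Rspo1-5 for each tested member of 29 gene lists, ordered by the list median (black bar; number tested in brackets), with the median of all genes tested at 0.15 as a dashed line. Red points were called higher, blue points lower and grey points not called by limma at a false discovery rate of 0.05, and Wnt targets have the highest median (1.84), and the enterocyte list has a median of -0.65.

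Counts of called members depended on the libraries in the same way as the total. Leaving out KO2 Rspo2-5 left 1 library of that group. Almost none of the Wnt targets, stem cell markers, Paneth, fetal, matrix and enterocyte genes were then called by limma. The same held for all genes tested. Without KO7 Rspo1-5 fewer members of each of these lists were called. Without KO7 Rspo2-5 slightly more Wnt targets and stem cell markers were called, and fewer members of the other lists. The total over all genes fell in both cases. The cell cycle calls were lost without KO2 Rspo2-5 or KO7 Rspo1-5, and partly lost without KO7 Rspo2-5. Falls in lipid synthesis were called without KO2 Rspo1-5 and not without any other library. With no block for the culture, 16 Wnt targets, 9 stem cell markers, 9 Paneth genes, 0 fetal genes, 2 matrix genes and 1 enterocyte gene were called. Of all 18211 genes in that fit, 887 were higher and 242 lower. At an unadjusted p of 0.05, 9 fetal genes were higher, beside 3835 of all genes. Most alpha-defensin calls were lost without KO2 Rspo2-5, and most or all were kept without another library. Some medians kept their direction: for Wnt targets they lay between 1.31 and 2.15 over the 4 omissions, for stem cell markers between 1.28 and 2.10, for Paneth genes between 1.33 and 1.90, for fetal genes between 0.86 and 1.88, for matrix genes between 0.34 and 1.08 and for enterocyte genes between -0.82 and -0.53. The medians of these lists had the same sign in both cultures, so their stability was partly set in advance. Some small medians changed sign. Among them, the goblet median went from 0.08 to -0.24 without KO7 Rspo2-5. The enteroendocrine median went from 0.18 to -0.15 without KO7 Rspo1-5, and the mitochondrial one from 0.21 to -0.10 without KO2 Rspo1-5.

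The 12 largest rises and 12 largest falls were taken among called coding genes at a group mean of 5 CPM or more. Each had to have the same sign in both cultures. The rises included 5 genes outside the lists. Thbs1, thrombospondin 1, a secreted matrix protein, was 0.70 and 1.25 CPM with Rspo1-5 in KO7 and KO2, and 30.6 and 27.2 CPM with Rspo2-5. Its log2 fold change was 3.93 ± 0.21 (SE, adjusted p = 0.00019, limma). Sorbs2, an adaptor of the actin skeleton, was 8.05 CPM in KO7 and 17.1 CPM in KO2 with Rspo1-5, and 149.6 and 131 CPM with Rspo2-5. The rise had a log2 fold change of 3.47 ± 0.37 (adjusted p = 0.004, limma). Atg9b, a membrane protein of autophagy, was 4.85 CPM with Rspo1-5 and 151 CPM with Rspo2-5 in KO7, and 7.55 and 46.8 CPM in KO2. KO7 and KO2 both rose, with a log2 fold change of 3.59 ± 0.45 and an adjusted p of 0.0055 from limma. With Rspo2-5, Thbs1 and Sorbs2 reached similar levels in the cultures, whereas Atg9b was far higher in KO7. Ptpn14, a tyrosine phosphatase (log2 fold change 3.05), and Rgcc (3.14) completed the 12 with Lgr5, Ascl2, Axin2, Tnfrsf19, Igfbp4, Defa35 and Habp2.

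Among the 12 largest falls, Ctrb1, a chymotrypsinogen, was 112 and 34.0 CPM with Rspo1-5 in KO7 and KO2, and 3.25 and 5.40 CPM with Rspo2-5. For Ctrb1, limma gave a log2 fold change of -3.59 ± 0.46 and an adjusted p of 0.0055. Gstm3, a glutathione transferase, was 871 CPM in KO7 and 884 CPM in KO2 with Rspo1-5, and 91.1 and 322 CPM with Rspo2-5. Gstm3 had a log2 fold change of -2.35 ± 0.58 (SE, adjusted p = 0.019, limma). Arg2, the mitochondrial arginase, was 310.3 CPM with Rspo1-5 and 34.0 CPM with Rspo2-5 in KO7, and 307 and 95.9 CPM in KO2. This fall had a log2 fold change of -2.41 ± 0.45 (adjusted p = 0.0097, limma). Ces1f, a carboxylesterase, was 157 and 234 CPM with Rspo1-5 in KO7 and KO2, and 15.7 and 74.8 CPM with Rspo2-5. Each culture fell, with a log2 fold change of -2.44 ± 0.52 and an adjusted p of 0.013 from limma. In these last 3 genes the Rspo2-5 library of KO2 lay between that of KO7 and both Rspo1-5 libraries. The lipase Lipn (log2 fold change -2.73), Rims4 (-2.80), Cfhr2 (-2.69), Cyp2c70 (-2.25) and Afp, alpha-fetoprotein (-2.20), were also among them, beside Igfbp5 and Bmp3. Several belong to families of similar copies (Gstm, Ces1, Cyp2c), for which shared reads make single members uncertain.

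At 100 ng/ml, limma called 0 of 18211 genes (0.0%) between Rspo2 and Rspo1 in the same cultures, and 484 passed an unadjusted p of 0.05. The ligand difference at 5 ng/ml was larger than that at 100 ng/ml for 19 genes (0.104%) and smaller for 0, and 5205 genes passed an unadjusted p of 0.05. Thbs1 was 59.2 and 45.8 CPM with Rspo1 at 100 ng/ml in KO7 and KO2, and 43.7 and 49.3 CPM with Rspo2, so both Rspo1-5 libraries (0.70 and 1.25 CPM) lay far below these, and both Rspo2-5 libraries (30.6 and 27.2 CPM) lay nearer to them. The interaction for Thbs1 was 4.09 ± 0.30 (SE, log2; adjusted p = 0.00304, limma). Among the 19 were 5 alpha-defensins, Defa35, Defa26, Defa27, Defa30 and Defa31, with interactions of 1.74 to 3.21, and the Paneth genes Wnt3 and Habp2. Iffo2, Zfp503, App, Ceacam1, Cpn1, Podxl, Dll3, Mgat4c, Fyn, Id2 and Slc7a5 made up the rest, with interactions of 1.19 to 2.33. Wnt3 was 11.6 and 9.80 CPM with Rspo1 at 100 ng/ml and 9.70 and 8.75 CPM with Rspo2. The median log2 fold changes at 100 ng/ml were 0.19 for Wnt targets, 0.05 for stem cell markers, -0.16 for Paneth genes and 0.04 for enterocyte genes, beside 1.84, 1.66, 1.62 and -0.65 at 5 ng/ml. The count of 19 was 3069 without KO2 Rspo1-5, 8 without KO7 Rspo1-5, 2 without KO7 Rspo2-5 and 1 without KO2 Rspo2-5.

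**Figure D4:**
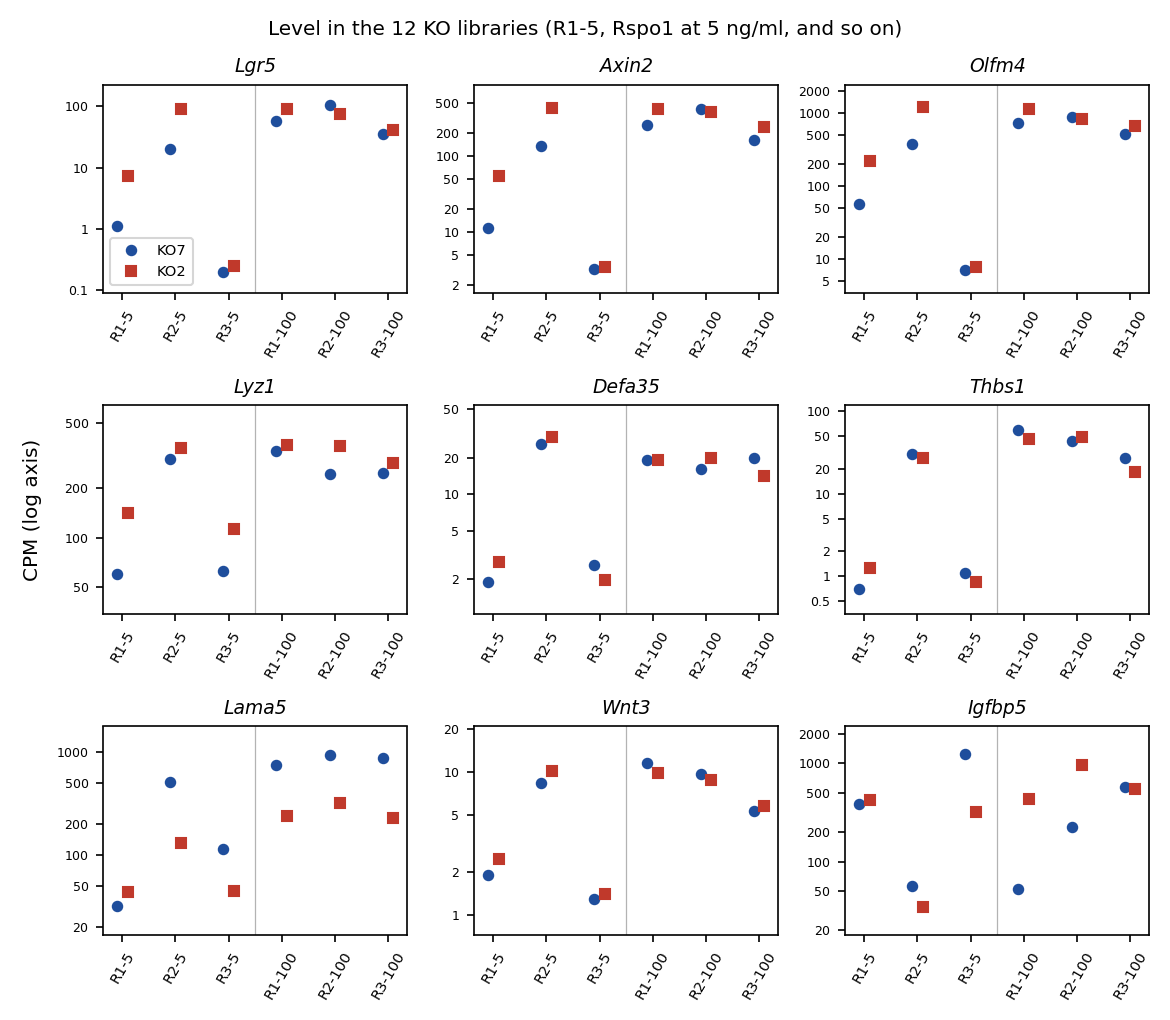
Level of 9 genes in the 12 KO libraries (CPM, log axis, each panel with its own range) by ligand and dose, with circles for KO7 and squares for KO2; R1-5 is Rspo1 at 5 ng/ml, and the grey line parts the doses. For Wnt3, Defa35 and Thbs1 the Rspo2-5 points lie near the 100 ng/ml points and above the Rspo1-5 points in both cultures; for Igfbp5 the Rspo2-5 points of 57.0 and 34.6 CPM lie far below Rspo1-5.

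In WT organoids the same ligands at 5 ng/ml gave smaller differences for many of these genes. The test of the difference between genotypes called 14 of 19130 genes (0.0732%), 13 with a larger value in KO and 1 with a smaller one, and 2447 passed an unadjusted p of 0.05. Wnt3 was 3.00, 2.55 and 2.45 CPM with Rspo1-5 and 3.55, 3.15 and 2.80 CPM with Rspo2-5 in WT10, WT5 and WT30, so the 6 WT libraries lay between 2.45 and 3.55 CPM. The interaction for Wnt3 was 1.51 ± 0.23 (SE, log2; adjusted p = 0.015, limma). Defa26 was at most 0.90 CPM in the 6 WT libraries, and its interaction was 1.69 ± 0.26 (adjusted p = 0.015, limma). Krt4, a keratin of stratified epithelium, reached at most 0.35 CPM in WT. In KO it was 0.15 CPM in both cultures with Rspo1-5, and 10.3 and 4.60 CPM in KO7 and KO2 with Rspo2-5. Fam46c, Tbx3, Defa29 and Gm15292 were called higher in KO, and their log2 fold changes in WT were -0.23, 0.26, -0.58 and -0.27. Aldoc, an aldolase, fell from 65.3, 62.7 and 78.3 CPM to 25.8, 23.0 and 21.5 CPM in WT. In KO, Aldoc was 68.9 CPM in KO7 and 71.5 CPM in KO2 with Rspo1-5, and 68.3 and 78.5 CPM with Rspo2-5. Slc28a1, S100a11, Sord, Apol7a and Mpp3 also had values under 0 in WT (log2 fold changes of -2.37 to -0.48) with interactions of 0.83 to 1.96, and Plekha5 was the gene with a smaller value in KO (interaction -0.60).

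By list, the difference was larger in KO at an unadjusted p of 0.05 for 15 of 23 Wnt targets, 10 of 19 stem cell markers, 17 of 21 Paneth genes and 13 of 22 fetal genes, beside 7.73% of all genes; after adjustment these counts were 0, 0, 3 and 0. The median log2 fold changes were 1.84 in KO and 0.68 in WT for Wnt targets, 1.66 and 0.86 for stem cell markers, 1.62 and 0.24 for Paneth genes, 1.36 and 0.30 for fetal genes, and 0.76 and 0.23 for matrix genes. Enterocyte genes (-0.65 and -0.80) and cell cycle genes (0.55 and 0.60) had similar medians, and unfolded protein and amino acid response genes had the larger median in WT (0.25 and 0.79). Igfbp5 fell in both, with log2 fold changes of -3.15 in KO and -4.03 in WT. The genotypes also differed in sex-linked transcripts: Xist was 0.45 to 213 CPM in the 12 KO libraries and 1030 to 3926 CPM in the 18 WT libraries, and Ddx3y was 55.0 to 73.5 CPM in KO and at most 0.45 CPM in WT, so sex and genotype cannot be told apart. Xist also differed between the compared KO libraries. It was 1.9 and 0.6 CPM with Rspo1-5 in KO7 and KO2, and 29.35 and 16.9 CPM with Rspo2-5. The cause of that difference was not tested. The count of 14 was 638 without KO2 Rspo1-5 and 0 without KO7 Rspo1-5, KO7 Rspo2-5 or KO2 Rspo2-5 (limma).

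**Figure D5:**
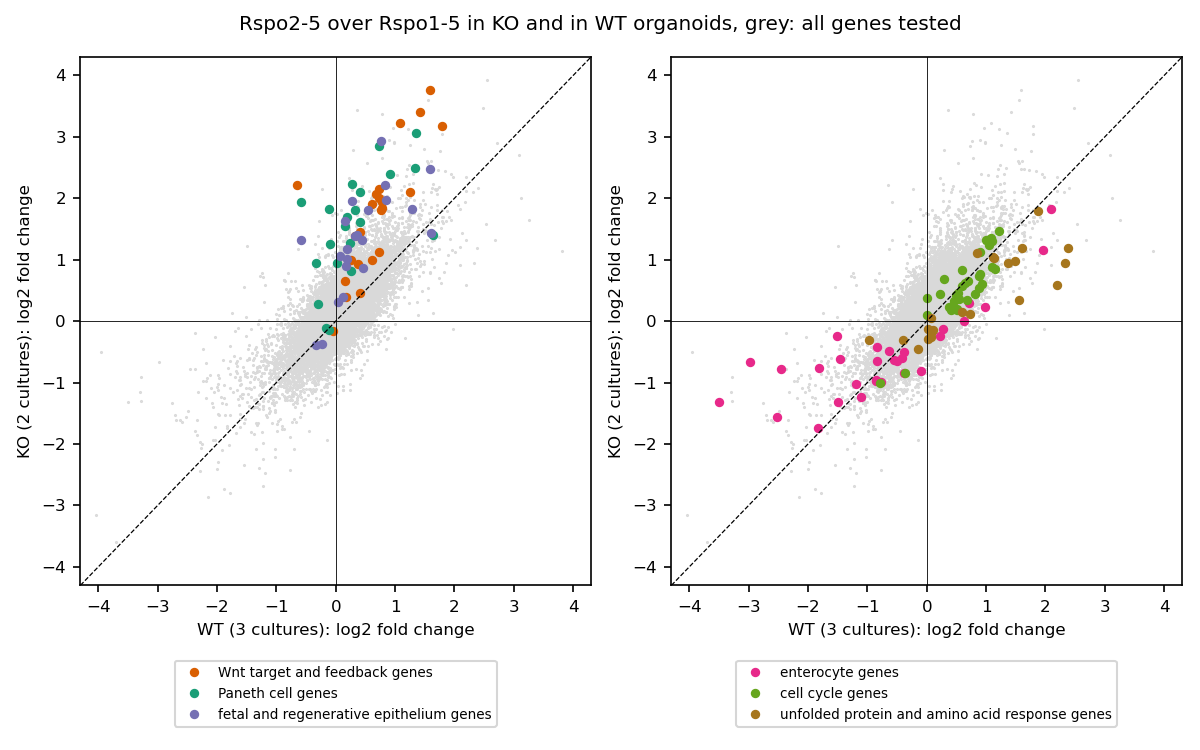
Log2 fold change of Rspo2-5 over Rspo1-5 in 2 KO cultures (vertical) against 3 WT cultures (horizontal), 1 point per gene, with all genes tested in grey and 3 gene lists in colour in each panel. Most Wnt target, Paneth and fetal genes lie above the dashed line of equal change (left), and cell cycle genes lie along it (right; medians 0.55 in KO and 0.60 in WT).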

How the data were processed

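RNA was sequenced as paired-end libraries after ribosomal RNA depletion. Per the labels and the submitters' processing notes, the authors trimmed reads with Trimmomatic 0.36, aligned them with STAR 2.5.3a to GRCm38 and counted them on Ensembl genes with HTSeq 0.9.1; the deposited table holds CPM (counts per 1000000 reads on genes), printed in steps of 0.05. Whole reads could not be recovered from these values, so no count model was used, and depth was estimated from the spacing of low CPM. Of 52636 identifiers, 99.72% were found in GENCODE M21.

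From the CPM, limma 3.58.1 in R 4.3.3 was fitted to log2(CPM + 1) of 12 KO libraries, with the 6 conditions and the culture as terms and a trend on the mean, for genes at 1 CPM or more in at least 2 libraries. The pseudocount of 1 understates changes of low genes. P-values were adjusted by Benjamini-Hochberg and called at 0.05. The pairs came from the same culture, and the deviations of its Rspo1-5 and Rspo2-5 libraries from their group means correlated at 0.417 across genes. The WT comparison used all 30 organoid libraries. The limma script was tested on simulated data. Named were the 12 largest rises and 12 largest falls of called coding genes at a group mean of 5 CPM or more. These had to have the same sign in both cultures and a symbol that was not a clone name. Also named were a fixed set of markers and up to 5 called members of each list by p. For R-spondin receptors, Wnt targets, stem cell and Paneth genes the rule took every called member. Genes named beyond this were chosen after their values were seen. The members and lists were chosen with earlier results of these data known. Libraries of sorted cells were not used here. Some genes that met the naming rule are not reported here. Leaving out each library, other scalings, filters and pseudocounts were tried, and the leave-out counts by list and the alpha-defensin list were added after seeing the data.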

Additional observations from a re-analysis of the deposited data

Results flagged for a closer look

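The ligand difference at 5 ng/ml differed between KO and WT organoids for 14 genes by the interaction term in limma, with adjusted p-values of 0.0154 to 0.0425. The log2 difference in KO minus that in WT was positive for Defa29 (2.53), Krt4 (2.51), Fam46c (2.38), Mpp3 (1.96), Gm15292 (1.90), S100a11 (1.79), Apol7a (1.77), Defa26 (1.69), Slc28a1 (1.59), Aldoc (1.57), Wnt3 (1.51), Tbx3 (0.95) and Sord (0.83). It was negative for Plekha5 (-0.60), which was lower with Rspo2-5 in both KO cultures and higher in the 3 WT cultures. Slc28a1, Apol7a, S100a11, Aldoc, Mpp3 and Sord fell or had values under 0 in WT, so their positive interactions do not all stand for rises in KO. Sex-linked transcripts separated the same groups and their part was not tested.

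Between the doses, the ligand difference was larger at 5 than at 100 ng/ml in KO organoids for 19 genes, with adjusted p-values of 0.00304 to 0.0487 from limma. The log2 difference at 5 minus that at 100 ng/ml was that of Thbs1 (4.09), Defa35 (3.21), Habp2 (3.06), Defa30 (2.56), Defa26 (2.39), Zfp503 (2.33), Defa31 (2.13), Wnt3 (1.88), Cpn1 (1.84), Dll3 (1.78), Fyn (1.77), Slc7a5 (1.76), Defa27 (1.74), Mgat4c (1.70), Ceacam1 (1.66), Podxl (1.55), Iffo2 (1.48), Id2 (1.38) and App (1.19). The defensins among them share sequence and were counted with reads that may belong to another copy.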

How the results depend on the processing

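With culture as a replicate block 4973 genes were called (3600 higher, 1373 lower), and with no replicate block 1129 (887 and 242). Only the 4 libraries compared gave 3100 (2196 and 904), no filter on low values 2399 (1783 and 616), a fold of 2 added to the call 1207 (933 and 274), and a false discovery rate of 0.01 802 (609 and 193). Median-ratio scaling gave 2311 higher and 2199 lower, and quantile normalization 2023 higher. Without KO7 and with all organoid libraries in the fit 1738 were called (1188 and 550). Without 1 library or culture the total ranged from 14 to 5822, the higher genes from 11 to 4304 and the lower from 3 to 1518. The 14 genes that differed between genotypes became 1 with no replicate block, 0 with no filter and 7 at a mean of 10 CPM or more, and 0 to 638 without 1 library; the 19 that differed between doses became 2, 1 and 3 in the same order, and 1 to 3069. The cause was not tested.

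No called gene among the 186 named changed sign under these alternatives, and 9 uncalled genes did. Called genes had the same sign in both cultures, so leaving out 1 culture could not reverse them. This stability was thus partly set in advance. Median-ratio scaling gave log2 fold changes of -0.026 for Chga, -0.074 for Lgr4, -0.11 for Aldoc and -0.024 for Dclk1. Dclk1 was -0.18 with quantile normalization and -0.0070 with a pseudocount of 5. Leaving out 1 library or culture gave ranges of -0.34 to 2.08 for Loxl4, -0.27 to 0.59 for Sis, -0.25 to 0.51 for Chga, -0.15 to 0.27 for Aldoc, -0.54 to 0.57 for Dclk1, -0.74 to 0.29 for Apol7a and -1.14 to 0.14 for Muc2. Without KO2, in the fit of all organoid libraries, Smoc2 was -0.032, Aldoc -0.012 and Muc2 0.053. Sis was -0.12 without KO7 Rspo2-5, Chga -0.23 and Dclk1 -0.49 without KO7 Rspo1-5, and Apol7a 0.20 without KO2 Rspo1-5. With 2 cultures, each value rests on 2 pairs, and a level of 0.05 CPM rests on 1 read.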
